A study of Rattus norvegicus with 4 samples.

Results

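Fibroblast growth factors (FGFs) and their receptors were followed in 2 rat prostate cancer cell lines, G and MAT-LyLu. The members were 8 genes chosen by symbol, the ligands Fgf1, Fgf2, Fgf7 and Fgf10 and the receptors Fgfr1, Fgfr2, Fgfr3 and Fgfr4, and every probe set that the platform annotation gives to 1 of these symbols was taken. This gave 14 probe sets for 7 of the 8 genes, of 8799 probe sets and 4737 named genes on the array; Fgfr3 was not analysed here. Both lines are sublines of the Dunning R3327 rat prostatic tumour, G labelled non-metastatic and MAT-LyLu highly metastatic, with no treatment, time or culture conditions in the labels. Total RNA of each line was hybridised as biotin-labelled cRNA to 2 Affymetrix oligonucleotide arrays, numbered 0 and 1, with G as the control. Each arm is 1 line, so what separates metastatic from non-metastatic cells cannot be told apart from what separates these particular lines. The labels do not say whether the 2 arrays of a line came from separate cultures, and the p-values then describe array-to-array spread alone, which can be technical.

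FGFs are secreted proteins that bind tyrosine kinase receptors together with heparan sulphate, and the active receptor signals mainly through the Ras, MEK and ERK kinases. In the prostate, Fgf7 and Fgf10 are made by stromal cells and act on the epithelial splice form of Fgfr2, while Fgf1 and Fgf2 bind a wider set of receptors. In Dunning tumours, loss of that epithelial splice form and gain of Fgfr1 and of other ligands are known to go with progression. The signal of a whole probe set does not separate splice forms unless its probes lie in the alternative exon, and the position of the probes was not used here.

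Signals are MAS5 values, a linear intensity per probe set, and differences were taken on the scale log2(signal + 16) as MAT-LyLu minus G. They were tested with limma over 6555 probe sets, and "rose" and "fell" are used only of an adjusted p (Benjamini-Hochberg, 2-sided) under 0.05. A fold is 2 to the power of that log2 difference. Each array's background level was taken from 23 control probe sets for bacterial, yeast and mouse sequences, as their 95th percentile, and ran from 1891 to 2311 signal units. Array medians ran from 2998 to 3156. Calls for cell type markers used the brightest tested probe set of each gene, with p-values adjusted over 3867 genes. Of these genes 14.4% rose and 20.5% fell. Of 11 mesenchymal and smooth muscle markers, 10 were tested, 5 fell and 1 rose, and their summed signal was 191807 to 211468 in G and 105519 to 108617 in MAT-LyLu. Of the 9 epithelial markers measured 7 were tested, 2 rose and 1 fell, and the summed signal was 22233 to 23593 in G and 74705 to 75222 in MAT-LyLu, with Epcam, Krt14 and Krt19 under background on all 4 arrays. Krt8 (1978 and 1691 in G, 41435 and 41521 in MAT-LyLu) and Spint2 (4037 and 3826, 16867 and 16524) were the 2 that rose and carried the higher sum, while the list had a median log2 difference of 0.01. Prostate secretory genes Pbsn, Svs4 and Svs5 were under background on all 4 arrays. Mmp7, the only other prostate marker measured, exceeded background on every array (G 3194 and 2848, MAT-LyLu 3232 and 3644). It was the 1 prostate marker tested, with a log2 difference of 0.19 (adjusted p = 0.19 by limma). Under background on all 4 arrays were also 2 of 4 endothelial markers (Pecam1 and Kdr) and 2 of 7 leukocyte markers (Cd3g and Itgam). No endothelial or leukocyte marker tested passed (3 and 5 tested). Summed signals of these endothelial and leukocyte lists were 9696 to 11145 and 20250 to 20810 in G. In MAT-LyLu they were 10451 to 11058 and 20247 to 21333.

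The signals of the FGF ligands and receptors measured here differed little between G and MAT-LyLu, with Fgf7 as the exception. Of 14 probe sets, 13 entered the test, none rose, 2 fell (Fgf7 and 1 of the 4 of Fgfr2) and 11 did not pass. Over all probe sets tested 13.6% rose and 20.1% fell. The median log2 difference was -0.08 over the 13 and -0.03 over all tested, and the median size of the difference, whatever its sign, was 0.12 against 0.18. For the 11 probe sets that did not pass, log2 differences ran from -0.19 to 0.21. All of their 95% intervals lay between -0.41 and 0.41, inside a 2-fold change of the signal in either direction. A change in transcript can be larger where part of the signal is unspecific. Values of the lines were fully separate for 9 of the 13 tested, or 69.2%, which is near the 67.4% of all probe sets tested. At an unadjusted p under 0.05, 4 of the 13 passed (30.8%), against 2734 of the 6555 probe sets tested (41.7%). With 2 arrays against 2, an exact permutation of a single value cannot give a p below 0.333, so each call leans on the spread that limma shares between probe sets. Quantile and median scaling each gave 4 calls in place of 2, the same 2 falls and 2 rises of Fgf2.

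Of the 14 probe sets, 8 were above the array median on all 4 arrays and 3 were below it on all 4. Of the same 14, 10 were above the background level on all 4 arrays, and only the Fgf10 probe set was under it on all 4. In both lines, 5 of 7 leukocyte and 2 of 4 endothelial markers were also above this level on both arrays. Lying above it therefore does not by itself show expression. The 15 control probe sets that read the opposite strand, which should bind no target, ran from 1199 to 8969 signal units, and 11 of the 14 FGF probe sets lay within the range of those controls on every array. Only 8 of the 14 were above the median of those controls on every array. The part of such binding in the FGF signals was not tested.

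**Figure D1:**
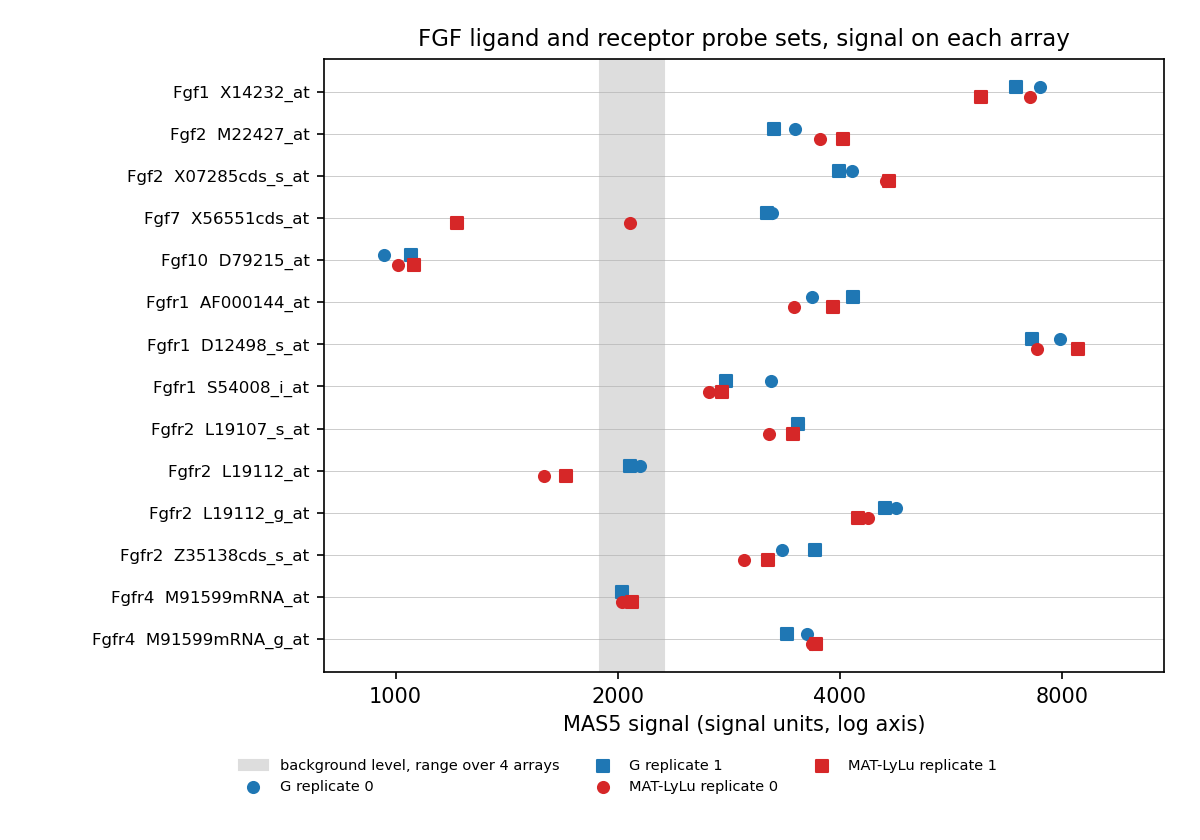
Signal of each of the 14 FGF probe sets on each of the 4 arrays (log axis, signal units; blue G, red MAT-LyLu; circles replicate 0, squares replicate 1), with the range of the arrays' background levels in grey. Fgf7 is the widest gap between the lines, with its MAT-LyLu arrays at 2079 and 1211 and its G arrays at 3240 and 3188.

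Among the ligands, Fgf7, the keratinocyte growth factor that carries signals from stroma to epithelium, fell in MAT-LyLu. Its single probe set (X56551cds_at) read 3240 and 3188 on G replicates 0 and 1, and 2079 and 1211 on MAT-LyLu replicates 0 and 1. Both MAT-LyLu arrays lay below both G arrays, and replicate 0 of MAT-LyLu was above its background level while replicate 1 was below it. The means were 3214 ± 37.1 (SD, n = 2) in G and 1645 ± 613 (SD, n = 2) in MAT-LyLu, a log2 difference of -1.01 (SE 0.21, 95% interval -1.51 to -0.51, adjusted p = 0.0080 by limma), or 2.01-fold lower. The size of the Fgf7 fall depended on the dim array. With dim signals set to their array's background level it was 1.46-fold lower (log2 difference -0.55, adjusted p = 0.0014 by limma). That floor raised only MAT-LyLu replicate 1, which narrowed the gap between the MAT-LyLu arrays that the p-value rests on. Without MAT-LyLu replicate 1 the log2 difference was -0.62, and without MAT-LyLu replicate 0 it was -1.40. Either fit holds 1 MAT-LyLu array and cannot measure the spread of that line. All 14 alternatives that tested Fgf7 kept it lower in MAT-LyLu, with log2 differences from -1.40 to -0.55.

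The 2 MAT-LyLu arrays disagreed more for Fgf7 than for nearly any other probe set. They differed by -0.77 on the log2 scale (replicate 1 minus replicate 0), and 99.4% of the probe sets tested had a smaller difference between these arrays. The G arrays differed by -0.02. The difference between the lines was larger than that of 91.8% of the probe sets tested. Of the 10 mesenchymal and smooth muscle markers tested, 5 fell in MAT-LyLu (Col1a1, Col1a2, Col3a1, Thy1 and Tagln). Over all genes tested 20.5% fell and 14.4% rose. Fn1 rose 2.92-fold, and Vim, Acta2, Des and Myh11 did not pass on their brightest probe sets. The part of these markers in the Fgf7 result was not tested. The samples are cell lines, and each array reads the RNA of a line as a whole. A change in some of its cells and a change in all of them cannot be told apart.

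**Figure D2:**
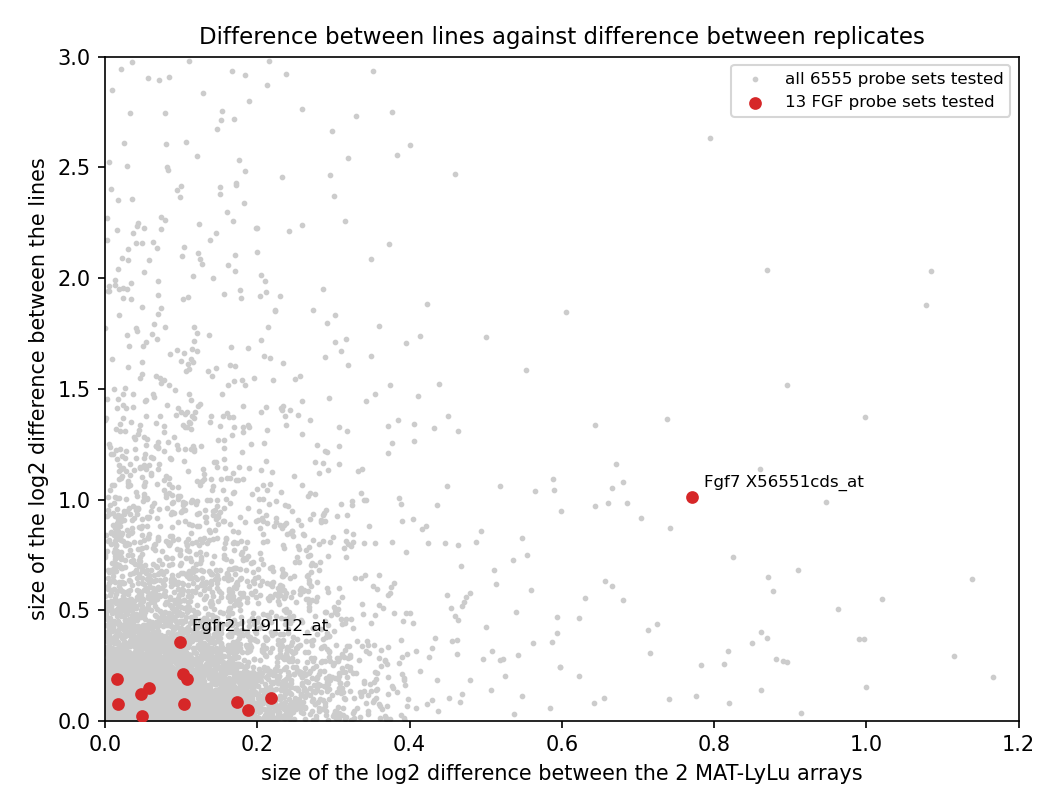
Size of the log2 difference between the lines (vertical axis) against the size of the log2 difference between the 2 MAT-LyLu arrays (horizontal axis) for the 6555 probe sets tested (grey; 81 lie outside the axes) and the 13 FGF probe sets among them (red). Fgf7 sits at 1.01 and 0.77, apart from the other 12, which lie at or below 0.36 on the vertical axis.

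Fgf2, basic FGF, was slightly brighter in MAT-LyLu on both of its probe sets, without passing. The first (M22427_at) read 3475 and 3254 in G and 3756 and 4035 in MAT-LyLu, and the second (X07285cds_s_at) read 4150 and 3993 in G and 4617 and 4669 in MAT-LyLu. On either probe set both MAT-LyLu arrays lay above both G arrays. The log2 differences were 0.21 (SE 0.09, adjusted p = 0.11 by limma) and 0.19 (SE 0.08, adjusted p = 0.11), or 1.16-fold and 1.14-fold, with 95% intervals of 0.01 to 0.41 and 0.00 to 0.38. Both passed with quantile normalization (adjusted p = 0.045 and 0.046) and with median scaling (0.047 and 0.047), and neither with cyclic loess (0.053 and 0.057). In that order of scalings, the median log2 difference of all genes was 0.03, 0.02 and 0.01, against -0.02 as reported. Genes that rose numbered 708, 680 and 676, against 557, and genes that fell 695, 712 and 731, against 792. Over all alternatives the adjusted p ran from 0.045 to 0.42 for the first and from 0.046 to 0.33 for the second. The probe sets share a gene, so they are not separate cases.

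Fgf1, acidic FGF, showed no difference beyond the spread of its arrays. Its probe set (X14232_at) read 7476 and 6927 in G and 7233 and 6217 in MAT-LyLu, so the lines overlapped. The log2 difference was -0.10 (95% interval -0.34 to 0.13, adjusted p = 0.49 by limma). Fgf10, the other stromal ligand for the epithelial receptor form, was read at 963 and 1050 in G and at 1008 and 1060 in MAT-LyLu (D79215_at). All 4 values were under the background level, the lines overlapped, and the probe set was left out of the test as one of the dimmest 25%. Its difference without that filter was 0.04 (95% interval -0.21 to 0.28, adjusted p = 0.84).

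**Figure D3:**
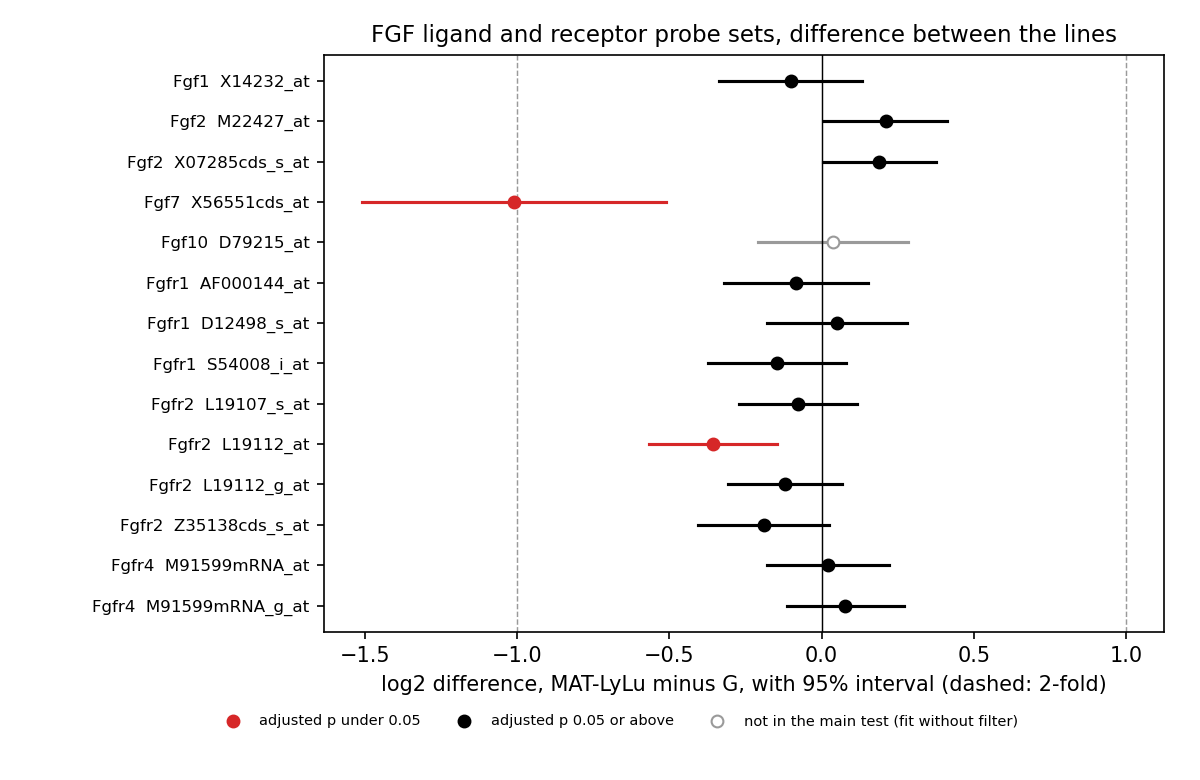
Log2 difference between the lines (MAT-LyLu minus G) with its 95% interval from limma for each FGF probe set; red points have an adjusted p under 0.05, and the open grey point (Fgf10) comes from the fit without the filter. Fgf7 at -1.01 and 1 Fgfr2 probe set at -0.36 are the 2 calls, and every other interval stays inside the dashed 2-fold lines.

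Of the receptors, Fgfr1, which Fgf1 and Fgf2 bind and which is common in mesenchymal cells, had 3 probe sets and none passed. The brightest (D12498_s_at) read 7949 and 7293 in G and 7391 and 8422 in MAT-LyLu, with a log2 difference of 0.05 (95% interval -0.18 to 0.28). The second (AF000144_at) read 3664 and 4162 in G and 3466 and 3912 in MAT-LyLu, and the lines overlapped on both of these probe sets. The dimmest (S54008_i_at) read 3225 and 2800 in G and 2658 and 2767 in MAT-LyLu, with no overlap. The log2 differences of the second and the dimmest were -0.08 and -0.15, and the adjusted p-values of the 3, in the order given, were 0.74, 0.58 and 0.30 by limma. Their signs were mixed, and those of the first 2 turned when single arrays were left out. Averaged over its probe sets, Fgfr1 had a log2 difference of -0.06 (adjusted p = 0.62).

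Fgfr2, whose epithelial splice form is the receptor for Fgf7 and Fgf10, had 4 probe sets, all with lower values in MAT-LyLu and 1 of them past the threshold. That probe set (L19112_at) read 2144 and 2079 in G and 1588 and 1701 in MAT-LyLu. Both MAT-LyLu arrays and 1 of the 2 G arrays were under their background level. Its log2 difference was -0.36 (SE 0.09, 95% interval -0.57 to -0.15, adjusted p = 0.018 by limma). As 1 G array was also under its background level, these values set no lower bound on the size of the fall. With dim signals set to background the probe set was 1.025-fold lower. The call was lost when dim signals were set to background (adjusted p = 0.94), without G replicate 0 (0.055) and without MAT-LyLu replicate 0 (0.10), and 11 of 14 alternatives kept it, with adjusted p from 0.015 to 0.94.

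The other Fgfr2 probe sets were brighter and did not pass. A second probe set from the same sequence record (L19112_g_at) read 4762 and 4601 in G and 4372 and 4231 in MAT-LyLu, a log2 difference of -0.12 (adjusted p = 0.30 by limma). Another (Z35138cds_s_at) read 3344 and 3703 in G and 2968 and 3201 in MAT-LyLu, at -0.19 (adjusted p = 0.16). The last (L19107_s_at) read 3516 and 3509 in G and 3210 and 3452 in MAT-LyLu, at -0.08 (adjusted p = 0.53). On each of the 4 the MAT-LyLu arrays lay below the G arrays. The lines were fully separate, in either direction, on 67.4% of all probe sets tested. The average over the 4 probe sets of Fgfr2 was -0.19 (adjusted p = 0.092 by limma, over genes). Probe sets of 1 gene on the same arrays are not replicates. Whether the probe sets of Fgfr2 differ among themselves was not tested.

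Fgfr4, a receptor best known in liver and muscle, did not differ detectably. One probe set (M91599mRNA_at) read 2030 and 2026 in G and 2024 and 2093 in MAT-LyLu, at the background level, with 1 array of each line above it. The other (M91599mRNA_g_at) read 3605 and 3389 in G and 3668 and 3711 in MAT-LyLu, where the MAT-LyLu arrays lay above those of G. Log2 differences were 0.02 (95% interval -0.18 to 0.22, adjusted p = 0.88 by limma) and 0.08 (95% interval -0.11 to 0.27, adjusted p = 0.52).

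**Figure D4:**
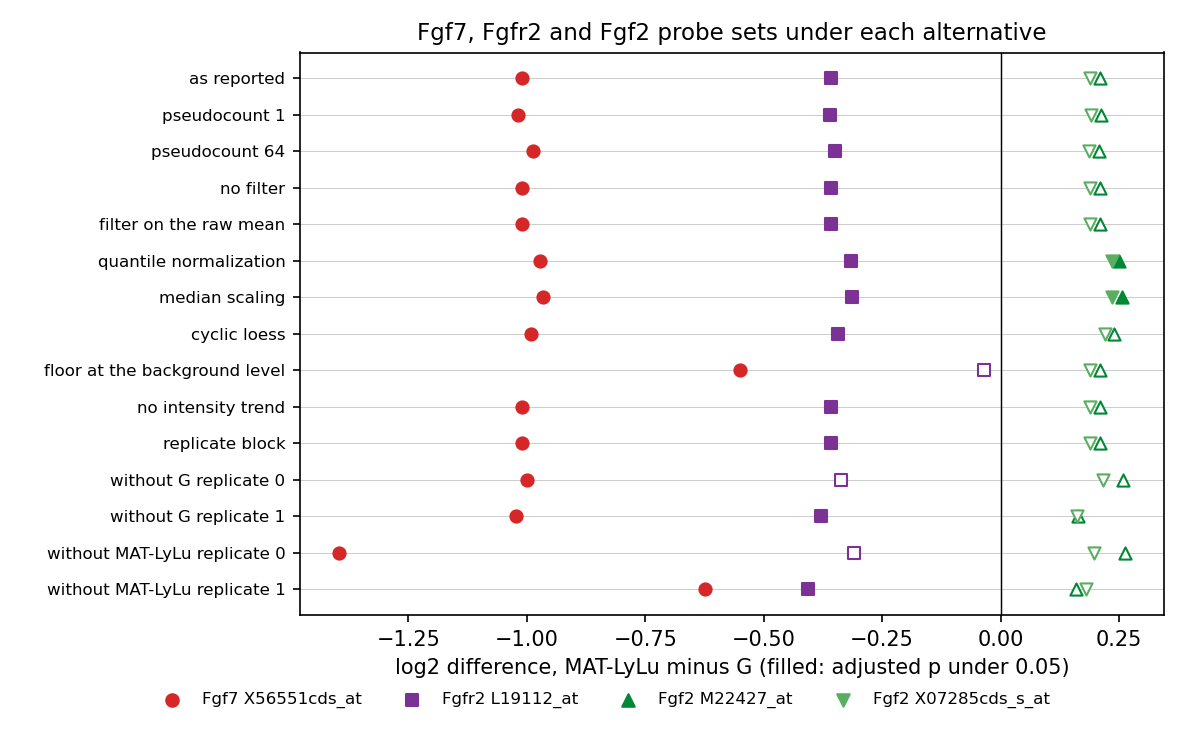
Log2 difference (MAT-LyLu minus G) of the Fgf7 probe set, the Fgfr2 probe set past the threshold and both Fgf2 probe sets as reported and under each alternative that tested them; filled symbols have an adjusted p under 0.05. Fgf7 lies below 0 throughout, from -1.40 to -0.55, and the Fgfr2 probe set drops to -0.04 when dim signals are set to background. Fgf2 is filled with quantile and median scaling only. Fits with 1 array left out hold 1 array of a line, so their fill does not measure that line's spread.

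By the distance between log2 values of the 4 arrays, each centred on its own mean, the named genes most like Fgf7 among 5396 probe sets were Dynlrb1, Cyc1 and Stk3 (distances 0.090, 0.12 and 0.13). The 3 were picked on these same 4 values, so that they too were lower on MAT-LyLu replicate 1 than on replicate 0 follows from the choice. Dynlrb1 read 26708 and 24742 in G and 16461 and 10227 in MAT-LyLu. For the Fgfr2 probe set past the threshold, they were Napa, Gfi1 and Bmp7 (distances 0.021, 0.024 and 0.030). This likeness rests on 4 values per gene.

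Genes that act with FGF receptors were read by 5 lists, with the brightest tested probe set standing for each gene and p-values adjusted over 3867 genes, of which 14.4% rose and 20.5% fell. The lists were chosen with earlier results of these data known. Over the 5 lists 52 of 111 genes were tested, 18 rose, 7 fell and 27 did not pass. Of the 18 rises, 11 were on the list of ERK targets and feedback regulators, where 12 of 16 tested passed in either direction. The coreceptor list (4 of 11, 36.4%) and the signalling list (5 of 15, 33.3%) were near the 34.9% of all genes, and 1 of 4 other ligands passed.

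Of the 4 other FGF ligands tested, Fgf5 fell and Fgf9, Fgf16 and Fgf18 did not pass, with a list median of 0.10 against -0.02 for all genes. Fgf5, a ligand of mesenchymal tissues and hair follicles, read 2579 and 2768 in G and 1731 and 1602 in MAT-LyLu, below both G arrays and below background. The fall was at least 1.28-fold (log2 difference -0.68, SE 0.09, adjusted p = 3.9e-04 by limma), and it did not pass when dim signals were set to background (adjusted p = 0.057); the range over 15 alternatives was 1.7e-04 to 0.057. Fgf9 and Fgf18 were under background on all 4 arrays, at log2 differences of 0.21 and 0.20, and Fgf16 was at -0.0031, a value whose sign turned with the scaling.

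Of 11 coreceptors and heparan sulphate genes tested, 2 rose, 2 fell and 7 did not pass, with a median of -0.03. Of the rises, that of Kl, described below, passed with adjustment over genes but not over all probe sets. Sdc1, a heparan sulphate proteoglycan of epithelial surfaces, rose from 2399 and 2245 in G to 12559 and 11068 in MAT-LyLu, or 5.05-fold (log2 difference 2.34, SE 0.09). Gpc1, a glypican anchored in the membrane by lipid, fell 1.83-fold from 22866 and 23418 to 12723 and 12598, and the syndecan Sdc2 fell 1.63-fold. The Klotho gene Kl, a coreceptor of endocrine FGFs, passed narrowly (log2 difference 0.27, adjusted p = 0.049) under background in both lines; it did not pass without the filter (0.055), with dim signals set to background (0.94) or without any 1 array (0.067 to 0.19), was not tested when the filter used raw signals, and had a range of 0.019 to 0.94.

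Of 15 signalling genes tested, 3 rose, 2 fell and 10 did not pass, with a median of 0.04. The MEK genes went apart. Map2k1 rose 1.82-fold, from 9426 and 8188 in G to 18502 and 13854 in MAT-LyLu (2 of its 3 probe sets higher), and Map2k2 fell 1.75-fold, from 21772 and 19667 to 12685 and 10987 (all 3 probe sets lower). The Ras exchange factor Sos1 rose 1.55-fold and the kinase gene Akt2 1.84-fold, both on 2 of 2 probe sets. Stat3 fell by 0.26 on the log2 scale (adjusted p = 0.041 by limma), on 1 of 2 probe sets. The phosphatase gene Ptpn11, Plcg1, Src and Araf did not pass, nor did the adaptor gene Grb2 on its brightest probe set, while 1 of its 3 was lower.

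Among 16 known targets and feedback regulators of ERK signalling, 11 rose (68.8%), 1 fell and 4 did not pass. The median log2 difference was 0.81 against -0.02 for all genes. As the list was chosen with earlier results of these data known, this share and median are not independent of that choice. Dusp6, a phosphatase that switches off ERK and is a standard readout of FGF signalling, read 1864 and 1632 in G, under background, and 20544 and 18084 in MAT-LyLu, a rise of at least 9.31-fold (adjusted p = 9.1e-09 by limma). Fosl1, an AP-1 subunit, read 1015 and 1161 in G and 17549 and 14050 in MAT-LyLu, at least 7.58-fold higher. In both cases the lines were far apart and the G arrays carried only a bound.

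Ccnd1 rose 7.90-fold, with 3 of 5 probe sets higher and 1 lower, and Jun 3.58-fold, with 3 of 4 higher. Averaged over the probe sets of each gene, the rises were 4.27-fold for Ccnd1 and 1.73-fold for Jun (adjusted p = 1.3e-08 and 8.0e-05 by limma). Egr1 rose 3.31-fold, or 3.04-fold with dim signals set to background, with 1 of 2 G arrays above background and 2 of 4 probe sets higher. The ERK phosphatase Dusp5 rose 2.35-fold and Hmga1 by 1.00 on the log2 scale. Plaur, Junb, Ier3 and Myc completed the rises at 1.77-fold, 1.73-fold, 1.32-fold and 1.23-fold, Myc on 1 of 2 probe sets. The fall was Jund, at least 1.52-fold. The 4 genes that did not pass were Dusp1 (-0.23), Dusp4 (0.09), Spry1 (0.14) and Fos (0.08, all log2 differences); Spry1, a feedback inhibitor of FGF receptors, read 2557 and 2711 in G and 3099 and 2730 in MAT-LyLu. Genes of this list respond to many receptors and to Ras itself, so their values do not show the activity of FGF receptors. Besides the 4 with the smallest p, the genes of this list were named after their values were seen. The same holds for Stat3, the 5 signalling genes that did not pass, Ptbp1 and the named mesenchymal markers.

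**Figure D5:**
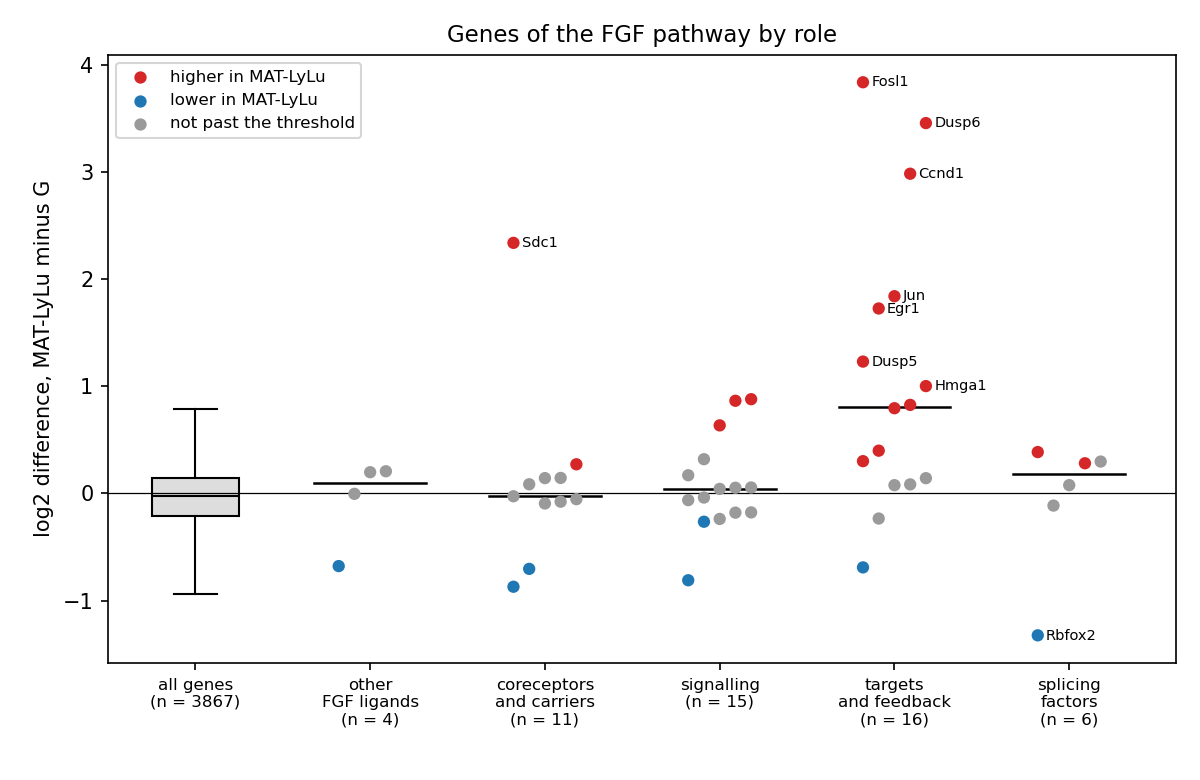
Log2 difference (MAT-LyLu minus G) of each tested gene of the 5 lists, with the list median as a bar, beside all 3867 genes tested (box: quartiles and median; whiskers: 5th and 95th percentile). The targets and feedback list has its median at 0.81, with Fosl1, Dusp6 and Ccnd1 at the top. The other medians lie between -0.03 and 0.18. All 5 lists were chosen with earlier results of these data known.

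Of 6 splicing factors that act on FGF receptor or similar exons, 2 rose, 1 fell and 3 did not pass, with a median of 0.18. Ptbp1 did not pass on its brightest probe set (log2 difference 0.08), while 2 of its 4 probe sets were higher. Rbfox2, which promotes the epithelial form of Fgfr2, fell 2.50-fold, from 6633 and 5338 in G to 2754 and 2038 in MAT-LyLu (log2 difference -1.32, SE 0.15, adjusted p = 1.0e-04 by limma), with 1 of 2 MAT-LyLu arrays above background. Hnrnpa1 rose 1.31-fold and Hnrnpf 1.22-fold. The single probe set of Hnrnpf passed with adjustment over genes but not over all probe sets. Hnrnpa1 lost its call without MAT-LyLu replicate 0 or 1 (adjusted p = 0.14 and 0.055) and Hnrnpf without G replicate 1, MAT-LyLu replicate 0 or 1 (0.081, 0.23 and 0.16); the ranges over the alternatives were 4.9e-04 to 0.14 and 0.0020 to 0.23. Hnrnpm, with a log2 difference of 0.30, did not pass (adjusted p = 0.062; 0.027 to 0.040 under the 3 other scalings). The epithelial splicing regulators Esrp1 and Esrp2 were not analysed here.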

How the data were processed

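The deposited table holds 1 MAS5 signal intensity per probe set and array, per the submitters' processing notes; any version, scaling target or filter was not given in the sources used here. With 2% trimming, array means differed by at most 7.83%, so the intensities were used as deposited. Names came from the platform annotation, updated through the GRCr8 RefSeq gene table: 7018 probe sets had 1 symbol, 308 several and 1473 none, and 6994 of the 7018 were matched. No coordinates are printed, since the build of the array's annotation is not given. On log2(signal + 16), 59 controls were left out, as were the dimmest 25% of rat probe sets by mean log2 value, and 6555 were fitted with limma 3.58.1 (R 4.3.3; lmFit, eBayes with an intensity trend) on all 4 arrays; the script was tested on simulated data. Adjustment was Benjamini-Hochberg over all probe sets, or all genes for lists. Named are all member probe sets and, per list, the 4 genes with the smallest p. The dim-signal filter was first run on the mean of the raw signals (908 probe sets higher, 1330 lower) and was changed to the log2 mean (891 and 1318) after these counts were seen, to follow an earlier processing of these data; the first version is kept as an alternative. The members and lists were chosen with earlier results of these data known. Probe sets ending in _s, _g or _i can match related transcripts or hold fewer probes. The number of arrays limits the precision.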

Additional observations from a re-analysis of the deposited data

How the results depend on the processing

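Of the members' 13 tested probe sets, 2 passed as reported (0 higher, 2 lower). Quantile normalization and median scaling gave 4 (2 higher, 2 lower), a floor at the background level gave 1, and dropping the dimmer 50% gave 0, because neither the Fgf7 nor the Fgfr2 probe set was then tested. The filter on raw signals, run first and replaced after its counts were seen, gave 2 member calls and 24 pathway genes, and kept the side of the threshold of all 13 member probe sets. Leaving out each array in turn gave 1 to 2 calls, all lower. The replicate numbers only number the arrays, and no label ties them to a shared culture or day; deviations of same-numbered arrays correlated at 0.159. With the number as a replicate block, 2 member probe sets and 27 pathway genes passed, against 2 and 25 without. The count of pathway genes stayed within 1.5 times of 25 in all alternatives (19 to 27). Values that changed sign were all close to 0. With 1 array left out, Fgf1 ran from -0.2106 to 0.0073 (without MAT-LyLu replicate 1). Fgfr1 was at 0.0073 and 0.0027 (AF000144_at, without G replicate 1 and MAT-LyLu replicate 0; lowest -0.1759), at -0.011 and -0.043 (D12498_s_at, without G replicate 1 and MAT-LyLu replicate 1; highest 0.1451) and at -0.060 as the mean of all probe sets. Fgfr4 (M91599mRNA_at) was at -0.0027 without MAT-LyLu replicate 1 (highest 0.0453). Fgf16 was at 0.035, 0.042 and 0.018 with quantile, median and loess scaling, and at 0.061 and 0.014 without G replicate 0 and MAT-LyLu replicate 1 (lowest -0.0677). Signals near background limit the Fgf7, Fgf10, Fgfr2 and Fgfr4 values.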
